A study of Mus musculus with 2 samples.

Results

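Pax2, Pax8, Hnf4a and Wt1 are 4 genes for transcription factors that build the kidney or keep its cells in their identity, and their 5-hydroxymethylcytosine (5hmC) was read here over fixed stretches of the mouse genome, build mm9. The members were chosen by name, as 1 window per gene. Pax2 was taken as chromosome 19, 44830001 to 44912500 (82.5 kb), Pax8 as chromosome 2, 24275501 to 24331500 (56 kb), Hnf4a as chromosome 2, 163332001 to 163398500 (66.5 kb) and Wt1 as chromosome 2, 104966001 to 105014500 (48.5 kb). Together they span 253.5 kb, or 53 steps of 5 kb among the 494452 steps that tile the 19 autosomes. All 4 windows were found and all are described. Pax2, Hnf4a and Wt1 are read toward higher coordinates and Pax8 toward lower ones, so the 5′ edge of Pax8 is its highest coordinate. These directions follow the RefSeq strands, except that of Wt1, which is taken from general knowledge: the table used holds only Wt1os, the antisense gene at its start, on the minus strand, and each 5′, 3′, upstream and downstream value of Wt1 rests on that direction.

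The DNA came from kidneys of male C57BL/6 mice, an inbred laboratory strain, aged 6 weeks, and neither library is labelled with a treatment or a genetic change. The groups are 1 hMeDIP library, in which an antibody against 5hmC (Active Motif) pulled down the fragments that carry the mark, and 1 input library with no antibody. How many animals gave the DNA, and whether both libraries hold the same DNA, is not stated in the labels. The DNA is from whole kidney, so a value is a mean over all of its cell types, and more cells that carry the mark and more 5hmC per cell cannot be told apart. The libraries hold genomic DNA alone, so the tissue could not be checked against marker transcripts. There were 11424027 hMeDIP and 8316507 input fragments. As each group is a single library, no spread between replicates can be given and no test was run: each 95% interval below covers counting error only. The reads carry no molecular identifiers, so reads that share a position may repeat a molecule. Each deposited position line was counted once as a fragment, except in values weighted by reads.

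5hmC is made by TET enzymes, which oxidise 5-methylcytosine, and it is commonly found over the bodies of active genes and at enhancers, while CpG-rich promoters usually carry little of it. Pax2 and Pax8 are related paired-box factors that act together when the nephron forms. In the adult kidney Pax8 remains on along the tubules, and Pax2 mainly in the collecting system. Hnf4a, a nuclear receptor, drives the gene programme of the proximal tubule. Wt1, a zinc finger factor, marks the podocytes, the filtering cells of the glomerulus, which are a small part of the kidney.

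Promoter sequences were read for their CG pairs, since 5hmC can arise only on cytosine that is first methylated, which in mouse tissues lies mostly in CG pairs. The RefSeq promoter table (build GRCm38.p6, 250 bases before to 50 after a start) matched 3 of the 4 genes; Wt1 had no entry. The sequences below run 5′ to 3′ in the direction of the gene, with each CG pair in capitals. They are the CG-richest of 3 Pax2 entries (chromosome 19, plus strand), the only Pax8 entry (chromosome 2, minus strand) and the upstream of 2 Hnf4a entries (chromosome 2, plus strand).
Pax2: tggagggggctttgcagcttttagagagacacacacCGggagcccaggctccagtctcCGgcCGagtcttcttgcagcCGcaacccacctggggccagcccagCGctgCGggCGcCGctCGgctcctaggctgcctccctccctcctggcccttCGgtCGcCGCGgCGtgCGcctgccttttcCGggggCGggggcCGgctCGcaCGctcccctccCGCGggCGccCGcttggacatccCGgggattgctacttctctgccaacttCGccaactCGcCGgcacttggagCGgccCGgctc
Pax8: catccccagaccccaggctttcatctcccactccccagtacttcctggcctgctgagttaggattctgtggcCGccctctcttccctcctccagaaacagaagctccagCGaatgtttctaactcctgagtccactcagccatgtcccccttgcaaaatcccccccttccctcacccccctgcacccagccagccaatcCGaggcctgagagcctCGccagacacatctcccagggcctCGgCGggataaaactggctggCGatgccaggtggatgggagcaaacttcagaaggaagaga
Hnf4a: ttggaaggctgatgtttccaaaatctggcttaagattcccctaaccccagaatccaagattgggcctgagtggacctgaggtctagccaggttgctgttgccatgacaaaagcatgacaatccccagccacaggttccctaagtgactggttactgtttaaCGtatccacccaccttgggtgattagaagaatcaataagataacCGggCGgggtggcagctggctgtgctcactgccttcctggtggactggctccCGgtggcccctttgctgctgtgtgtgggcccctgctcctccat
The Pax2 promoter held 30 CG pairs and was 71.7% G or C. The Pax8 promoter held 7 pairs at 59.3% and the Hnf4a promoter 4 pairs at 54.0%. Over all 32851 promoters of this length, 94.6% held at least 1 CG pair and the median was 7, so this Pax2 entry lay above the median, Pax8 at it and Hnf4a below it. CG reads the same on both strands. The other Pax2 entries held 7 pairs (the most upstream, at the median of all promoters) and 23 pairs (9151 bp further on, while the printed entry lies 10305 bp on). The most upstream Pax2 entry thus held as many pairs as the Pax8 entry. How Pax2 compares with the other genes depends on the entry printed. The second Hnf4a entry held 4 pairs and lies 40298 bp downstream of the printed one. These distances are on GRCm38.p6. The starts were not placed on mm9, so no value below is assigned to a single start. The RefSeq model of Pax2 is 91669 bp long, more than the 82500 bp of the window, so the window leaves out part of that model.

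The first question was how much 5hmC each gene carried. Values are ratios: the share of all hMeDIP fragments that fall in a region, placed by their midpoint, divided by the share of all input fragments there, so that 1 is the mean of the mapped genome. All 4 windows stood above 1, in the order Pax2, Hnf4a, Pax8, Wt1. Pax2 held 1179 hMeDIP and 295 input fragments, for a ratio of 2.91 (95% interval 2.56 to 3.32). Hnf4a held 722 and 223, a ratio of 2.36 (2.03 to 2.75). Pax8 held 641 and 242, a ratio of 1.93 (1.66 to 2.25). Wt1 held 305 and 173, a ratio of 1.28 (1.06 to 1.56), which is the only one of these intervals that comes close to 1.

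In all 6 pairs of genes the ratio of 2 ratios was taken, with an exact conditional interval. Pax2 over Wt1 was 2.27 (1.80 to 2.86), Hnf4a over Wt1 1.84 (1.43 to 2.35) and Pax8 over Wt1 1.502 (1.18 to 1.92), so Wt1 lay below each of the others by more than counting error. Pax2 over Pax8 was 1.51 (1.24 to 1.84). Pax2 over Hnf4a was 1.23 (1.01 to 1.51), just beyond counting error, and Pax8 over Hnf4a, at 0.818 (0.659 to 1.02), was within it. In fragments outside peaks 3 of these differences came within counting error: Pax8 over Wt1 at 1.23 (0.938 to 1.60), Pax2 over Pax8 at 1.15 (0.897 to 1.47) and Pax2 over Hnf4a, which turned to 0.979 (0.758 to 1.26).

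Against the genome, 3 of the 4 genes lay in the upper part of the range. Among all autosomal windows of the same length, with at least 5 input fragments per 5 kb, 97.2% had a lower ratio than Pax2, 93.3% a lower ratio than Hnf4a, 88.2% a lower ratio than Pax8 and 73.3% a lower ratio than Wt1. The medians of those windows were 0.732 to 0.750. Those windows tile the autosomes and were not matched for holding genes. The input density of the genes was 3.35 to 4.32 fragments per kb. Pax8 had more input than 92.7% of windows of its length and the other genes more than 36.0% to 50.6%. The part of the input in the order of the ratios was not tested.

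**Figure D1:**
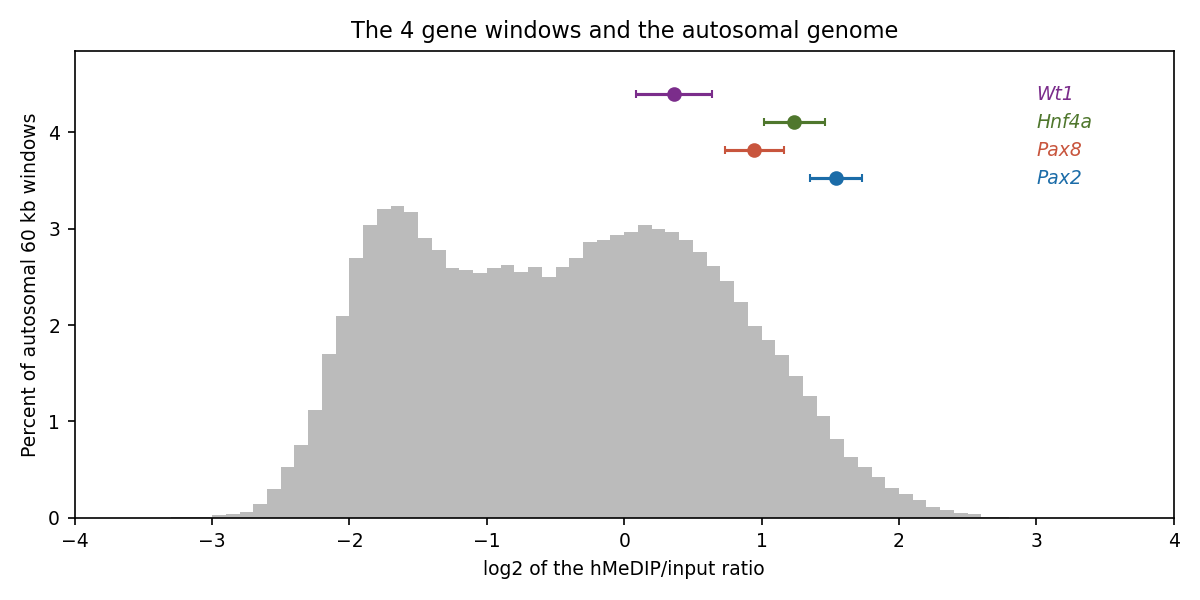
Grey bars give the percent of autosomal 60 kb windows (vertical axis) at each log2 ratio of hMeDIP to input (horizontal axis, classes of 0.1). Coloured points give the 4 gene windows with 95% counting intervals, at heights that carry no value: Wt1 at 0.36 lies in the right-hand hump of the distribution, and Pax2 at 1.54 lies in its right-hand tail.

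In Pax2, Hnf4a and Pax8 much of the signal sat in peaks, the stretches that the authors' caller marked as enriched. The Pax2 window held 22 peak midpoints, Hnf4a 13, Pax8 9 and Wt1 2, and peaks covered 37.9%, 23.7%, 18.8% and 5.94% of these windows. Windows of the length of Pax2 and of Hnf4a held a median of 1 peak, and those of the length of Pax8 and of Wt1 a median of 0. Fewer peaks than in the gene were found in 98.7% of windows for Pax2, 95.1% for Hnf4a, 91.8% for Pax8 and 67.1% for Wt1. Peaks were called on the hMeDIP signal itself, so their count is not independent of the ratio.

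Within peaks the ratios of Pax2, Hnf4a and Pax8 lay close together, while the share of the window in peaks varied between the genes. The caller picked peaks for enrichment on this same signal, so the ratios within peaks are not independent of its cutoff either. Their closeness is a description only. Fragments in peaks had a ratio of 5.70 (4.61 to 7.11) in Pax2, 5.28 (3.90 to 7.30) in Hnf4a and 5.17 (3.67 to 7.47) in Pax8. In Wt1 it was 8.15 (3.29 to 26.1), from 56 hMeDIP and 5 input fragments. Outside peaks the ratios were 1.52 (1.28 to 1.81) in Pax2, 1.56 (1.30 to 1.87) in Hnf4a, 1.32 (1.11 to 1.58) in Pax8 and 1.079 (0.884 to 1.32) in Wt1. Peaks took 65.1% of the hMeDIP fragments of Pax2, 48.2% of Hnf4a, 42.1% of Pax8 and 18.4% of Wt1. Outside peaks lay 71.7% of all hMeDIP fragments and 81.6% of those in Wt1. Wt1 thus had a smaller share in peaks than the genome, and the other genes a larger one. The genome outside peaks had a ratio of 0.757 on this scale. Relative to it the fragments outside peaks stood at 2.01 (1.69 to 2.39) in Pax2, 2.05 (1.71 to 2.47) in Hnf4a, 1.75 (1.47 to 2.08) in Pax8 and 1.43 (1.17 to 1.74) in Wt1, so all 4 genes were above it beyond counting error.

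**Figure D2:**
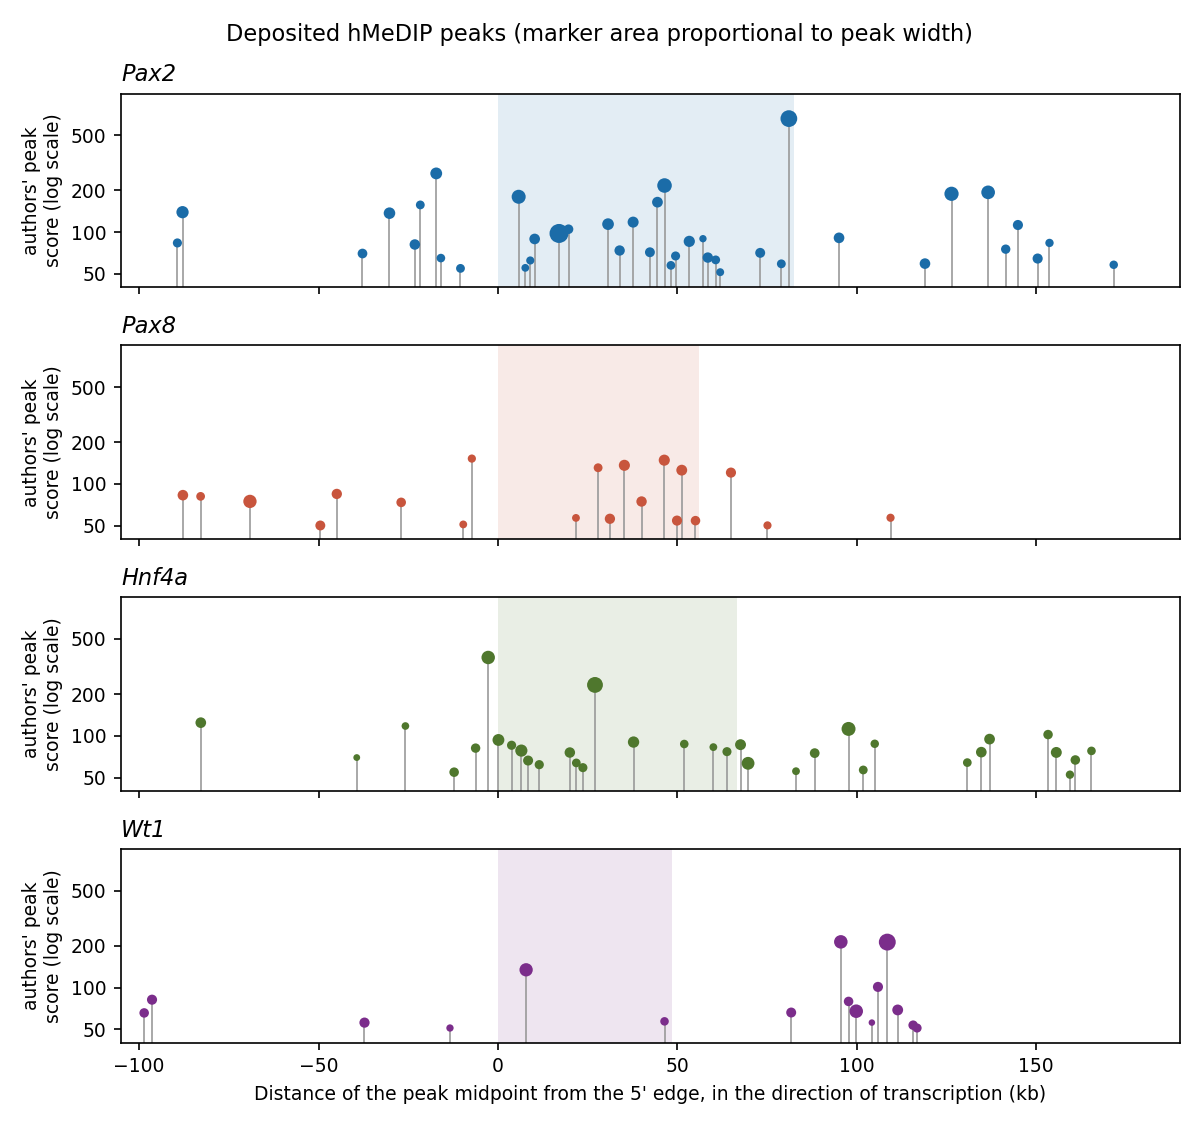
Each stem is 1 deposited peak, at the distance of its midpoint from the 5′ edge of the gene in kb (horizontal axis), with the authors' score on a log scale (vertical axis) and a marker whose area follows the peak's width. The shaded span is the gene window: the 22 peaks of Pax2 lie along it, the first 21.4 kb of Pax8 hold none, and Wt1 holds 2.

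The second question was whether the mark followed the gene or its neighbourhood. For this the gene body (the window without its outer 2.5 kb) was set against 100 kb on either side. The body stood above its flanks in Pax8, Pax2 and Hnf4a, and not in Wt1. In Pax8 the body was at 1.97 (1.69 to 2.31) and the flanks at 1.15 (1.04 to 1.26), a ratio of ratios of 1.72 (1.43 to 2.07). In Pax2 the body was at 2.72 (2.39 to 3.11) and the flanks at 1.91 (1.74 to 2.10), which gives 1.43 (1.21 to 1.68). The RefSeq model of Pax2 is longer than its window, so its flanks may hold part of the gene. In Hnf4a the body was at 2.29 (1.96 to 2.70) and the flanks at 1.65 (1.51 to 1.81), which gives 1.39 (1.16 to 1.68). In Wt1 the body was at 1.27 (1.04 to 1.55) and the flanks at 1.39 (1.27 to 1.52), which gives 0.912 (0.732 to 1.14).

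The contrast of body and flanks was larger in each of the other genes than in Wt1, by 1.56 (1.20 to 2.04) for Pax2, 1.89 (1.43 to 2.495) for Pax8 and 1.53 (1.15 to 2.02) for Hnf4a, with normal-approximation intervals on the log scale. Among Pax2, Pax8 and Hnf4a the differences of this contrast, from 0.829 to 1.24, had intervals that included 1. Only Pax8 passed 1.5-fold, which 7.72% of autosomal windows of its length did against their own flanks. At the lengths of Pax2, Hnf4a and Wt1 these shares were 6.83%, 7.36% and 7.99%. A body below its flanks by as much was found in 0 of the 4 genes, against 10.5% of windows at the length of Pax2, 12.1% for Pax8, 11.2% for Hnf4a and 12.9% for Wt1.

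Upstream and downstream flanks differed at 3 of the 4 genes. Pax8 had 1.31 (1.16 to 1.48) upstream, toward Cacna1b, a calcium channel gene, and 0.952 (0.823 to 1.10) downstream, toward Psd4. Hnf4a had 1.35 (1.18 to 1.54) upstream, toward R3hdml, and 1.98 (1.74 to 2.26) downstream, toward Ttpal, and its body exceeded the downstream flank by only 1.16 (0.940 to 1.43). Wt1 had 1.12 (0.983 to 1.27) upstream, toward Eif3m, and 1.67 (1.48 to 1.88) downstream, toward Them7, so that its body lay below the downstream flank, at 0.760 (0.600 to 0.963). That flank holds a stretch from 93.5 to 118.5 kb past the 5′ edge at 3.22 (2.58 to 4.05). With flanks of 50 kb, the Wt1 body was 1.02 (0.800 to 1.30) of both flanks. The flanks of Pax2, with Hif1an as the nearest coding gene upstream and Slf2 downstream, were alike at 1.83 (1.61 to 2.10) and 1.99 (1.74 to 2.27). Neighbours are named from the RefSeq order on GRCm38.p6.

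Peaks were called on the hMeDIP signal, so leaving out their fragments takes away the highest values by construction. In Pax2 peaks covered 37.1% of the body and 11.8% of both flanks. Without the fragments in peaks, body over flanks was 1.06 (0.868 to 1.31) in Pax2, 1.21 (0.974 to 1.52) in Hnf4a and 1.02 (0.813 to 1.29) in Wt1. In Pax8 it was still 1.47 (1.19 to 1.81), the only one of the 4 whose interval stayed above 1.

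Farther out the 4 loci parted. At 100 to 500 kb on both sides the ratio was 1.67 (1.60 to 1.75) around Pax2, 1.56 (1.495 to 1.63) around Hnf4a, 0.977 (0.930 to 1.03) around Wt1 and 0.733 (0.692 to 0.775) around Pax8. At 500 kb to 1 Mb it was 1.84 (1.77 to 1.91), 1.33 (1.27 to 1.38), 0.897 (0.859 to 0.937) and 1.01 (0.960 to 1.06) in the same order of genes. Beyond 100 kb, Pax2 and Hnf4a thus lay in surroundings above the genome mean, and Pax8 in surroundings at or below it. The nearer flanks of Pax8 were above it, at 1.15 (1.04 to 1.26). The median autosomal window of the length of Pax8 was at 0.737, so its farther surroundings were not low for the genome.

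**Figure D3:**
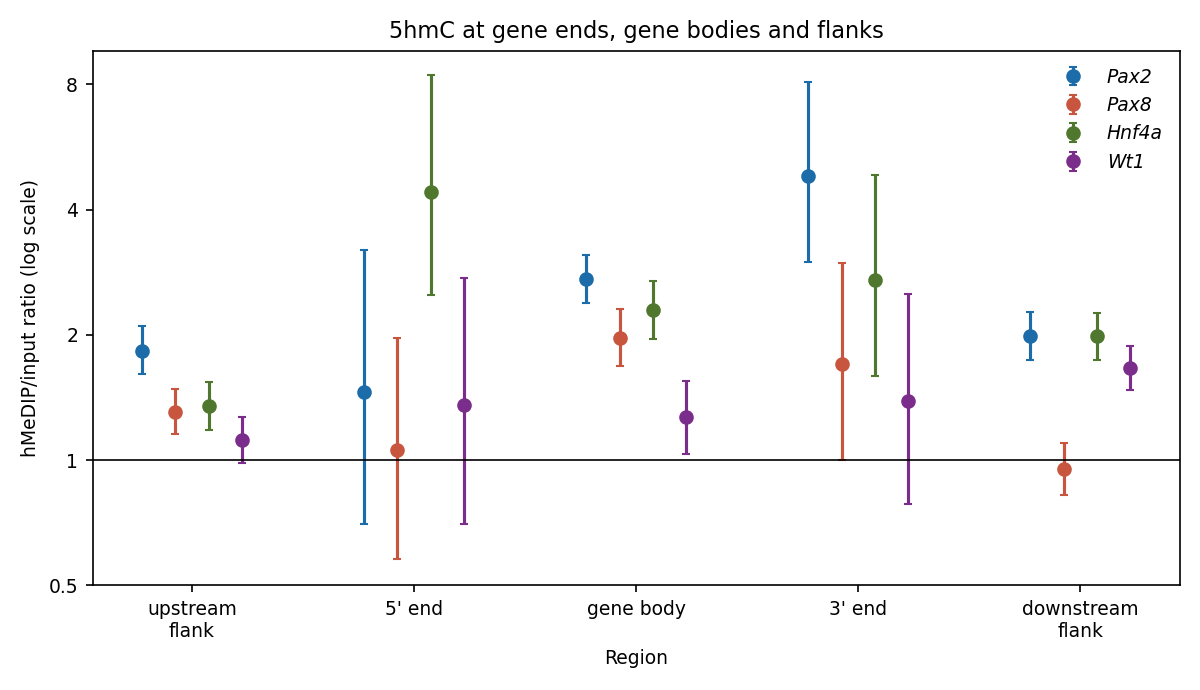
Points give the ratio of hMeDIP to input on a log scale (vertical axis) in 5 regions of each gene (horizontal axis), with 95% counting intervals. Hnf4a is the highest of the 4 at the 5′ end (4.42), Pax2 the highest in the body (2.72) and at the 3′ end (4.81).

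The third question was how the mark was placed along each gene, first at the ends, taken as 2.5 kb on either side of each edge. Hnf4a carried more 5hmC at its 5′ end than in its body, close to the limit of the counts and not beyond it under every setting. No such excess was detectable in the other genes. At the 5′ end Hnf4a held 85 hMeDIP and 14 input fragments, for a ratio of 4.42 (2.495 to 8.43). Against its body this was 1.93 (1.06 to 3.75), and against its upstream flank 3.28 (1.82 to 6.33). The part of CG pairs in these ratios was not tested.

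Pax2 had 24 and 12 fragments at its 5′ end, a ratio of 1.46 (0.700 to 3.20), or 0.535 (0.254 to 1.19) of its body. Pax8 had 29 and 20, a ratio of 1.06 (0.577 to 1.97), or 0.536 (0.287 to 1.02) of its body. Wt1 had 28 and 15, a ratio of 1.36 (0.702 to 2.74), or 1.07 (0.535 to 2.23) of its body. A dip at the 5′ end of Pax2 was therefore not detectable at this depth, and that of Pax8 depended on the setting. It was 0.408 (0.260 to 0.642) of the body with 5 kb on either side, 0.340 (0.170 to 0.681) for the 5 kb inside the window and 0.508 (0.274 to 0.959) with 150 bp fragments, all with intervals below 1. The interval included 1 weighted by reads, at 0.527 (0.282 to 1.01), and without fragments in peaks, at 0.7655 (0.406 to 1.47). With ends of 1 kb on either side it also did, at 0.4125 (0.157 to 1.10). With 2.5 kb on either side none of the 4 reached 0.5 of the body. Of autosomal windows, 16.3% at the lengths of Pax2 and of Pax8, 16.9% at that of Hnf4a and 16.0% at that of Wt1 had such an edge. The input was thin at the Pax2 5′ end, at 2.40 fragments per kb against 3.68 in the body. Its part in the result was not tested.

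The 5′ ends of Pax2 and Pax8 differed from that of Hnf4a, relative to their bodies, by 0.278 (0.111 to 0.694) and 0.278 (0.121 to 0.639). Pax2 against Wt1 gave 0.498 (0.190 to 1.31) and Hnf4a against Wt1 1.80 (0.744 to 4.33), both within counting error. With 150 bp fragments the Hnf4a 5′ end was 1.65 (0.933 to 3.09) of its body, an interval that includes 1. The same held without fragments in peaks, at 1.76 (0.826 to 4.07), with ends of 1 kb on either side, at 2.16 (0.825 to 7.15), and for the 5 kb inside the gene, at 1.51 (0.902 to 2.62). The interval stayed above 1 with ends of 5 kb on either side, at 1.72 (1.15 to 2.61), and weighted by reads, at 1.93 (1.06 to 3.75). This excess is thus close to the limit of the counts.

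At the 3′ end Pax2 stood out among its own regions, with 132 hMeDIP and 20 input fragments, at a ratio of 4.81 (2.99 to 8.12), or 1.77 (1.07 to 3.04) of its body. Without fragments in peaks this contrast turned to 0.887 (0.423 to 1.94), and with ends of 1 kb on either side it was 2.12 (0.828 to 6.91). The 3′ ends of Hnf4a, at 2.71 (1.59 to 4.85), Pax8, at 1.70 (0.9998 to 2.98), and Wt1, at 1.38 (0.785 to 2.51), did not differ from their bodies beyond counting error. For Pax8 this was 0.863 (0.495 to 1.55) of the body, but the 5 kb inside the window stood at 1.81 (1.02 to 3.40), above the body beyond counting error.

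Cut into 3 equal segments from 5′ to 3′, Pax8 was the gene whose first segment lay below the others. Its segments stood at 1.12 (0.848 to 1.49), 2.15 (1.68 to 2.78) and 2.63 (2.01 to 3.46). The first was 0.427 (0.287 to 0.636) of the last and 0.522 (0.356 to 0.766) of the second. The second was 0.819 (0.562 to 1.19) of the last, within counting error. The input was alike, with 85, 86 and 71 fragments, while hMeDIP gave 131, 254 and 256. Pax2 was even, at 3.17 (2.48 to 4.09), 2.89 (2.33 to 3.61) and 2.74 (2.21 to 3.41). The segments of Hnf4a, at 2.74, 2.03 and 2.32, and those of Wt1, at 1.55, 1.081 and 1.26, had no pair that differed beyond counting error.

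In 5 kb steps counted from the 5′ edge, a step was called high at a ratio of 2 or more with an interval above 1, and low at 0.5 or less with an interval below 1. Of the 50 steps in the 4 windows with at least 5 input fragments, 25 were high, against 13.8% of 439313 autosomal steps. Low steps numbered 0 of 50, against 30.8% of autosomal steps. A peak midpoint lay in 31 of all 53 steps, against 14.3% of autosomal steps. The median step of the 4 windows was at 2.12 and that of the genome at 0.700. The autosomal steps were likewise not matched for holding genes. By gene, high steps were 11 of 17 in Pax2, 7 of 12 in Hnf4a, 5 of 11 in Pax8 and 2 of 10 in Wt1. In the flanks 21 of 80 upstream and 28 of 78 downstream steps were high, and 2 and 7 were low. Steps of 1 gene are neighbours and do not count as replicates. The median autosomal step held 17 input fragments, so a single step is imprecise.

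**Figure D4:**
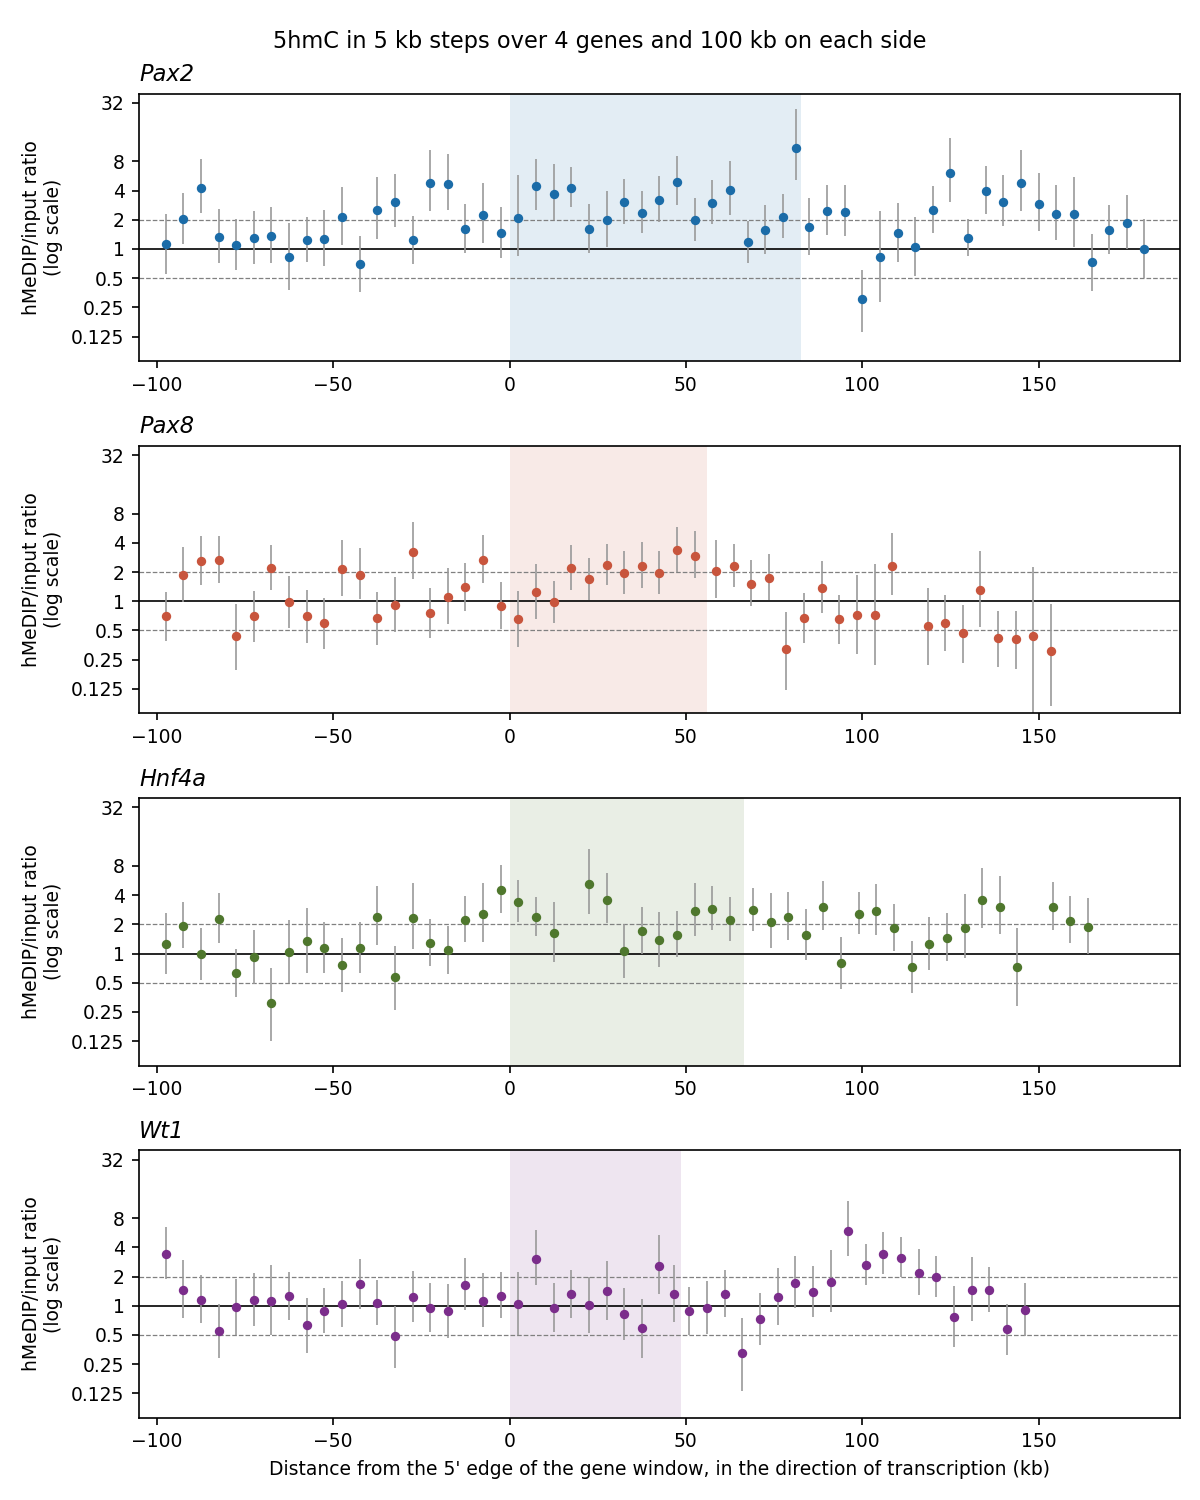
Points give the ratio of hMeDIP to input in 5 kb steps on a log scale (vertical axis) against distance from the 5′ edge in kb (horizontal axis), with 95% counting intervals, for steps with at least 5 input fragments. Shading marks the gene and dashed lines the ratios 2 and 0.5: high steps fill much of Pax2, begin 15 kb into Pax8, cross the 5′ edge of Hnf4a and are 2 of 10 in Wt1.

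In Pax2, whose protein directs the outgrowth of the ureteric bud, the first step of the gene held 20 hMeDIP and 7 input fragments, at 2.08 (0.845 to 5.82). The next 3 steps, from 5 to 20 kb, were all high and together held 274 and 48 fragments, a ratio of 4.16 (3.05 to 5.77). A further run of 4 high steps from 30 to 50 kb gave 3.22 (2.501 to 4.20). The lowest step, from 65 kb, was at 1.17 (0.714 to 1.95) and held no peak midpoint. The highest was the last, which is 2.5 kb long, with 105 and 7 fragments, at a ratio of 10.9 (5.12 to 27.8).

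That last step lies inside the peak with the highest score in the 4 windows, at chromosome 19, 44909459 to 44912690 (3232 bp), which crosses the 3′ edge. It held 131 hMeDIP and 10 input fragments, for a ratio of 9.54 (5.02 to 20.4), and its score in the authors' peak list, 659.05, ranks 767 of 92654. The widest Pax2 peak, at 44844941 to 44849100 (4160 bp), held 102 and 18 fragments at 4.13 (2.48 to 7.24), with a score of only 97.84. The peak nearest the 5′ edge, at 44834640 to 44836906, lay 5.77 kb inside, at 4.89 (2.196 to 12.8). The longest stretch of Pax2 free of peaks was 10213 bp. Of the 17 steps of the gene, 13 held a peak midpoint. In RefSeq the genes Mir6405 and 1700039E22Rik overlap Pax2. Their mm9 positions were not determined here, and fragments cannot be given to single genes.

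In Pax8, which with Pax2 commits cells to the nephron lineage, no peak lay in the first 21384 bp. The first 3 steps held 19, 29 and 40 hMeDIP against 21, 17 and 30 input fragments, at 0.659 (0.335 to 1.29), 1.24 (0.660 to 2.41) and 0.971 (0.590 to 1.61), the first being the lowest of the gene. From 15 kb on, each counted step was at 1.69 or above, and 5 of those 8 were high. The highest, from 45 kb, held 87 and 19 fragments at 3.33 (2.01 to 5.80).

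The Pax8 peak with the highest score (148.5), which was also the widest, spanned chromosome 2, 24284441 to 24285867 (1427 bp), with 41 and 6 fragments, at a ratio of 4.98 (2.10 to 14.3). The peak nearest the 5′ edge lay outside the gene, at 24338388 to 24339168, -7.28 kb from that edge, with 29 and 2 fragments, at a ratio of 10.6 (2.67 to 91.3). Its score, 152.45, exceeded that of each peak inside the gene. The lncRNA gene Gm13415 overlaps Pax8 in RefSeq, and fragments cannot be given to either gene.

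In Hnf4a the 5′ edge sat inside a broad stretch of 5hmC. A run of 5 high steps, from -15 to 10 kb, held 382 hMeDIP and 94 input fragments, for a ratio of 2.96 (2.36 to 3.75), with 7 peaks. Of these 5 steps, 3 lie before the edge. Hnf4a is the only one of the 4 genes whose edge step and the step before it were both high, at 3.40 (2.10 to 5.73) and 4.50 (2.64 to 8.19). The antisense lncRNA gene Hnf4aos and the gene Gm25881 overlap Hnf4a in RefSeq, and their share of the signal cannot be told apart.

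The peak nearest the Hnf4a 5′ edge crossed it, at chromosome 2, 163331327 to 163332947 (1621 bp), with 32 and 4 fragments, at a ratio of 5.82 (2.07 to 22.7). Just upstream, at 163328240 to 163330326 and -2.72 kb from the edge, a peak named after its values were seen had the highest score of the locus, 367.37. It held 68 hMeDIP and 3 input fragments, for a ratio of 16.5 (5.41 to 82.0). The peak with the highest score inside the gene, 232.92, was also the widest, at 163357598 to 163360488 (2891 bp), with 64 and 8 fragments, at a ratio of 5.82 (2.79 to 14.1).

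Along the Hnf4a gene the highest step, from 20 kb, held 64 and 9 fragments at 5.18 (2.56 to 11.8), and the lowest, from 30 kb, held 26 and 18 at 1.05 (0.555 to 2.04). The 4 steps from 30 to 50 kb were not called, with ratios between 1.05 and 1.71, and the longest stretch without a peak, 12967 bp from 38.5 to 51.5 kb, begins in them. A run of 3 high steps then led from 50 to 65 kb, at 2.59 (1.92 to 3.57). Beyond the 3′ edge 3 more high steps followed, at 2.49 (1.82 to 3.44), so 5hmC did not stop at the end of Hnf4a.

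In Wt1 the ratio stayed near the genome mean over most of the gene. Its median step was at 1.175, above the 0.700 of the median autosomal step. Both high steps stood alone: the step from 5 kb held 54 hMeDIP and 13 input fragments at 3.02 (1.63 to 6.04), and that from 40 kb held 42 and 12 at 2.55 (1.32 to 5.32), with no peak midpoint in it. The lowest, from 35 kb, held 17 and 21 at 0.589 (0.292 to 1.17). The peak nearest the 5′ edge, at chromosome 2, 104972830 to 104974868 (2039 bp), was also the widest and had the higher score, 134.53, with 39 and 3 fragments, at a ratio of 9.46 (3.01 to 47.9). The other, at 105011999 to 105012841, held 17 and 2 fragments at 6.19 (1.47 to 55.2), and 37130 bp without a peak lay between them. The score of the first Wt1 peak ranks 23165 of 92654, above 7 of the 9 peaks in Pax8, and the second ranks 78989.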

How the data were processed

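Kidney DNA was profiled by hMeDIP sequencing beside an input library. Mapping rests on Bowtie 1.0.0, CASAVA and mm9, per the submitters' processing notes, which give these names without their roles; read filters were not given in the sources used here. A deposited position line gives a 350 bp stretch and a count of the reads that share it, and was taken as 1 fragment, placed by its midpoint. The authors' deposited peak list gives a score per peak; per the file headers it was called with MACS, and its control and threshold were not given in the sources used here. Scores are used only to rank or filter peaks in that list.

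Ratios carry exact conditional binomial (Clopper-Pearson) intervals, and ratios of 2 ratios exact conditional odds-ratio intervals (scipy 1.17.1, numpy 2.4.6, pandas 2.3.3). No p-values were computed. Calculations were checked on simulated counts. A further list of renal factors was not measured, because no mm9 annotation was used here. In each gene the peak with the highest score, the widest peak, the peak nearest the 5′ edge and the extreme 5 kb steps are named. The genes, windows and lists were chosen with earlier results of these data known. The 3 segments per gene, distance rings, runs of at least 3 high steps and the ratios relative to the genome outside peaks were added after seeing the data. The alternatives changed the read weighting, fragment length, scaling, ends, flanks, steps and thresholds.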

Additional observations from a re-analysis of the deposited data

How the results depend on the processing

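Of 132 values recomputed under other settings, 110 stayed inside the main interval or within 1.5 times the main count, 20 moved beyond it, and 2 differences beyond counting error turned. Of the 110 values that are ratios, 13 crossed 1, and for 11 of these the main interval had included 1, so that no direction had been shown. In 13 the interval came to include 1, and in 5 it came to exclude it. Scaling to fragments outside peaks multiplies every ratio alike and gave 3.84 for Pax2, 2.55 for Pax8, 3.11 for Hnf4a and 1.70 for Wt1. Fragments outside peaks only gave 1.52 for Pax2, 1.32 for Pax8 and 1.56 for Hnf4a. They also moved Pax2 over Pax8 to 1.15, Pax2 over Wt1 to 1.41 and Pax2 body over flanks to 1.06. Under them Pax2 over Hnf4a turned to 0.979 and the Pax2 3′ end to 0.887 of the body. These 2 values leave out the peaks by construction. The body stood at 2.07 of the downstream flank alone in Pax8, and in Hnf4a at 1.70 of the upstream and 1.16 of the downstream flank alone. The Pax8 3′ end, taken as 5 kb inside the window, was 1.81 (1.02 to 3.40) of the body. High steps numbered 47 of 101 at 2.5 kb (12.4% of autosomal steps) and 14 of 26 at 10 kb (12.5%), counts that follow the number of steps. Scaled outside peaks, 36 of 50 were high (21.5% of autosomal steps). Among the 46328 peaks with the highest scores, Pax2 kept 11, Pax8 4, Hnf4a 4 and Wt1 1. The order of the 4 windows held when weighted by reads and with 150 bp fragments. No paired analysis was possible because each group has 1 library. Depth limits single peaks, steps and gene ends: the ends held 12 to 21 input fragments each.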

Other observations

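The only run of at least 3 high steps at the Wt1 locus lay outside the gene. This run of 5 steps, from 93.5 to 118.5 kb past the 5′ edge (chromosome 2, 105059501 to 105084500), held 438 hMeDIP and 99 input fragments, for a ratio of 3.22 (2.58 to 4.05), with 9 peaks against 2 in the gene. Its 2 peaks with the highest scores, at 105060501 to 105062608 and at 105072900 to 105076191, had ratios of 9.83 (3.62 to 37.4) and 4.73 (2.68 to 8.997). Of the genes near Wt1, Them7 is the next coding gene on that side in RefSeq; its mm9 position was not determined here.

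The longest run of high steps around the 4 genes lay downstream of Pax2, from 132.5 to 162.5 kb past its 5′ edge (chromosome 19, 44962501 to 44992500), with 336 and 76 fragments, at a ratio of 3.22 (2.502 to 4.19). Between the gene and this run, the step from 97.5 kb held 12 hMeDIP and 29 input fragments, at 0.301 (0.140 to 0.609), the lowest ratio among the counted steps of the 4 loci. Around Pax2 the ratio of single steps thus ran from 0.301 to 10.9, the latter in the last step of the gene, which is 2.5 kb long. The highest step of full length there, from 122.5 kb in the downstream flank, was at 6.07 (3.03 to 13.8). These runs and steps were picked out after their values were seen.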
